A study of Mus musculus with 4 samples.

Results

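Expression was described for 10 transcription factor genes of the Sox family in mouse embryonic stem cells with and without knockdown of Kdm2b: Sox1, Sox3, Sox4, Sox5, Sox6, Sox9, Sox11, Sox12, Sox15 and Sox21. They were taken by symbol from a list of factors known for roles in neural and other lineages. All 10 were measured, each by a single probe set with 1 annotated gene symbol, among 19938 genes in all. The data were 4 arrays (Affymetrix MoGene 1.0 ST), 2 of control and 2 of Kdm2b knockdown cells, and values are log2 expression per probe set as deposited. The cells of both groups were E14, a line from an inbred 129 mouse strain, kept on gelatin in medium with 15% serum and leukemia inhibitory factor (1000 units/ml), the cytokine that holds such cells in the stem cell state. By the labels, cells were infected with lentiviral vectors at 10 MOI (virus particles per cell), and puromycin at 2 µg/ml was added after 48 h. The contents of the vectors, whether the selected cells were pools or clones and whether replicates came from separate cultures are points not given in the sources used here. The p-values therefore measure only the spread between these arrays, which may be technical.

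Sox proteins bind DNA in the minor groove through an HMG box and bend it, and they usually act with a partner factor such as a POU protein. The family is divided into subgroups by that box. SoxB1 factors (Sox1, Sox2, Sox3) maintain stem and neural progenitor cells, the SoxB2 factor Sox21 counteracts them, and SoxC factors (Sox4, Sox11, Sox12) act as neurons begin to differentiate. SoxD factors (Sox5, Sox6) have no activation domain of their own and assist SoxE factors such as Sox9 in cartilage, while Sox15 is the only SoxG factor in the mouse. Kdm2b carries a CxxC zinc finger that binds unmethylated CpG dinucleotides and belongs to a variant of Polycomb repressive complex 1. The series asks how Kdm2b acts at the CpG islands of lineage genes, and several Sox genes are known Polycomb targets in stem cells.

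Kdm2b was read at 10.74 and 10.64 in control and at 9.20 and 9.19 in knockdown cells, a 2.82-fold lower level (log2 fold change -1.50; SE 0.066, adjusted p = 0.0039, limma). Array medians ran from 8.49 to 8.55. Of 15 stem cell markers, 1, the RNA-binding protein gene Lin28a, passed the test (log2 fold change -0.90, SE 0.09), and the others, Pou5f1 and Nanog among them, did not. Among all genes 12.2% passed. The mean log2 value of the 15 markers was 12.75 to 12.86 on the 4 arrays. The level of a probe set depends on its own probes, so values are compared between arrays and never between genes. In these bulk samples, a change in the share of cells that express a gene and a change in RNA per cell cannot be told apart.

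Of the 10 Sox genes, Sox4 and Sox11 were higher after knockdown, Sox15 was lower and 7 passed the threshold in neither direction (adjusted p under 0.05, limma over all genes). Among all genes 12.2% were called, 5.00% as higher and 7.19% as lower. All these changes were small: the 3 called genes moved by 1.25-fold to 1.32-fold. The log2 fold changes of the 10 genes had a median of 0.12, beside 0.03 over all genes, and 8 of the 10 were positive, beside 57.6% of all genes. Control and knockdown values did not overlap for 8 of the 10 genes, against 58.8% of all genes. The unadjusted p was under 0.05 for 5 of the 10 and for 29.8% of all genes. The list is short and was read only as single genes.

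**Figure D1:**
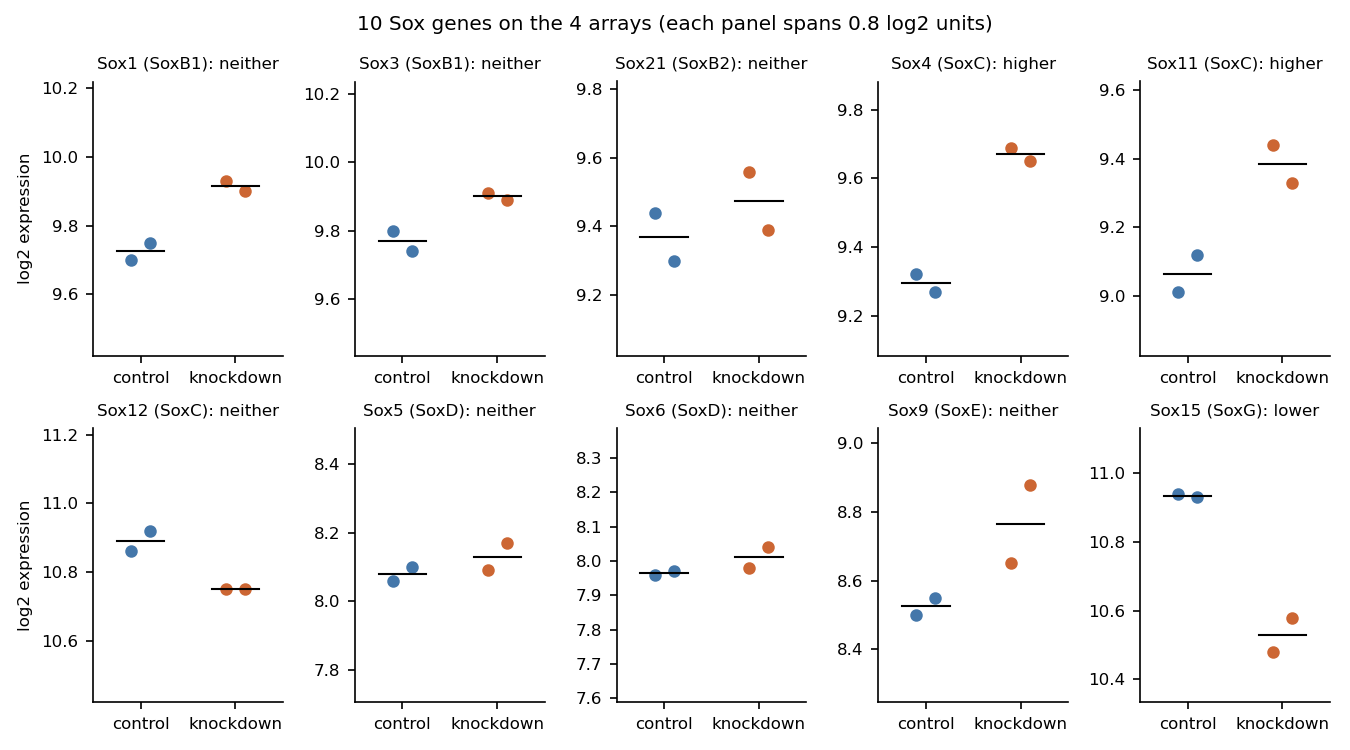
Log2 expression of the 10 Sox genes (y axis, a span of 0.8 log2 units in each panel) on the 2 control arrays (blue) and the 2 knockdown arrays (orange), with a bar at each group's mean and the call above each panel. Both knockdown arrays lie above both control arrays for Sox4 and Sox11 and below them for Sox15, and the groups overlap for Sox21 and Sox5.

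The SoxC subgroup held both of the called increases. Sox4, a factor of neuronal and lymphoid differentiation, was at 9.32 and 9.27 in control and at 9.69 and 9.65 in knockdown cells. Both knockdown arrays stood above both control arrays, with a gap of 0.33 between the groups. Sox4 rose by 0.38 on the log2 scale (SE 0.062, 95% interval 0.22 to 0.53, adjusted p = 0.0196, limma), or 1.30-fold, a change larger in size than that of 89.9% of all genes. Sox11, its close relative in immature neurons, was at 9.01 and 9.12 in control and at 9.44 and 9.33 in knockdown cells. The groups were again separate, with a gap of 0.21. Sox11 rose by 0.32 (SE 0.075, interval 0.14 to 0.50, adjusted p = 0.0467, limma), or 1.25-fold. After median centring of the arrays the increase of Sox11 was 0.28 and just missed the threshold (adjusted p = 0.0514, limma).

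Sox12, the third SoxC gene, is broadly expressed in the embryo. It was at 10.86 and 10.92 in control cells and at 10.75 on both knockdown arrays. Both knockdown arrays were the lower ones, and the log2 fold change was -0.14 (SE 0.062, interval -0.29 to 0.01, adjusted p = 0.196, limma). The change of Sox4 exceeded that of Sox12 by 0.52 on the log2 scale, and that of Sox11 exceeded it by 0.46. Across arrays the log2 difference between Sox4 and Sox12 shifted from -1.54 and -1.65 in control to -1.06 and -1.10 in knockdown cells, so the groups did not overlap. The exact permutation test gave p = 0.333 (two-sided), the smallest value that 2 arrays against 2 allow, for each of these contrasts (0.583 after adjustment over 7 pairs). Both knockdown arrays were higher for Sox4 and Sox11 and lower for Sox12. The separation of the differences and this p were therefore fixed by the single genes and add no support. The changes of Sox4 and Sox11 differed by only 0.06 (exact permutation p = 0.667), with array differences that overlapped between the groups.

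Because Kdm2b binds CpG dinucleotides, the promoter windows of the SoxC genes are shown, from 250 bases before to 50 bases after the RefSeq gene start (build GRCm38.p6, each written 5′ to 3′ along the gene). CpG dinucleotides are in capitals. Sox4 lies on the minus strand at chr13:28953650-28953949, Sox11 on the minus strand at chr12:27342669-27342968, and Sox12 on the minus strand at chr2:152397997-152398296.
Sox4: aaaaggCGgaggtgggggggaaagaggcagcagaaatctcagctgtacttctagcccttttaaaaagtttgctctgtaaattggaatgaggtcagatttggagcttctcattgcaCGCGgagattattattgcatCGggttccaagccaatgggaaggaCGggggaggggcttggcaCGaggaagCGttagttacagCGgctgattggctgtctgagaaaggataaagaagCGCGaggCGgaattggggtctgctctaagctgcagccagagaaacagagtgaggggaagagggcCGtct
Sox11: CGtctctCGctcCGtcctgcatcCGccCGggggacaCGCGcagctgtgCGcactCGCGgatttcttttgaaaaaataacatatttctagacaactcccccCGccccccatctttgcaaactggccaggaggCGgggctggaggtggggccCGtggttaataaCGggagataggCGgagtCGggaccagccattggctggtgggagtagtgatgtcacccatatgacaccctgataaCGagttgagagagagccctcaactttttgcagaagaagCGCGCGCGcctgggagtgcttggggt
Sox12: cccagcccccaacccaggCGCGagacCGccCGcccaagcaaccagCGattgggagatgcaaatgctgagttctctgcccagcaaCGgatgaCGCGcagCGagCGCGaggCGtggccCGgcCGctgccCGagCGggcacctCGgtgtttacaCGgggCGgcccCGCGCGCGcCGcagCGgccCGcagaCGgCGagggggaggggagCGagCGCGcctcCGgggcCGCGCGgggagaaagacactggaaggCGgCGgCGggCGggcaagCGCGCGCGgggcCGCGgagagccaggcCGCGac

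All 3 windows met a common composition rule for CpG islands, at least 50% G + C and a CpG observed over expected ratio of at least 0.6, as did 33.5% of the 32841 windows of all genes. The window of Sox4 held 12 CpG dinucleotides (52.0% G + C, ratio 0.68) and that of Sox11 held 21 (58.7%, ratio 0.82). The window of Sox12 held 47 (76.7%, ratio 1.07), and 1.22% of all windows held more. The median over all windows was 7 CpG dinucleotides with a ratio of 0.38. Within this subgroup the gene with the most CpG dinucleotides was the one not called higher. These are 3 genes with 1 short window each, and a relation between CpG content and response was not tested. Binding of Kdm2b and DNA methylation were not analysed here.

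Sox15 was the called decrease among the 10 genes. It encodes the SoxG factor, which is expressed in embryonic stem cells, where it can bind DNA together with Pou5f1, and in muscle progenitors. Its values were 10.94 and 10.93 in control and 10.48 and 10.58 in knockdown cells. Both knockdown arrays lay below both control arrays, with a gap of 0.35. Sox15 fell by 0.41 on the log2 scale (SE 0.066, 95% interval -0.57 to -0.24, adjusted p = 0.0188, limma), a level 1.32-fold lower, and 91.5% of all genes changed less. The promoter of Sox15, on the plus strand at chr11:69654787-69655086 (GRCm38.p6, CpG dinucleotides in capitals), is shown beside those of the SoxC genes for its contrast in CpG content.
Sox15: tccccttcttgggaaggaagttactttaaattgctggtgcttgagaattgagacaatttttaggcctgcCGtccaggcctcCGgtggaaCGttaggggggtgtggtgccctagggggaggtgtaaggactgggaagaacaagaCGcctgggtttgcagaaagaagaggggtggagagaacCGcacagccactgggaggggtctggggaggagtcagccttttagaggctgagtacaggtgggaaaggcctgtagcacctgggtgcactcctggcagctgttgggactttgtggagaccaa

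The window of Sox15 held 5 CpG dinucleotides (56.0% G + C, ratio 0.24) and did not meet the composition rule. Of all windows, 56.4% held more. The called genes therefore differed in promoter composition as well as in direction, with windows that met the rule for Sox4 and Sox11 and one that did not for Sox15. These are 3 genes, and no relation between composition and response was tested.

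With any array left out, 1 group holds a single array and the fit keeps 1 residual degree of freedom. No call among the 10 genes was then kept, but not even Kdm2b was called in these fits. The lost calls therefore cannot tell whether the Sox genes depend on single arrays, and only sizes are compared. The sizes moved little. The log2 fold change stayed between 0.35 and 0.40 for Sox4, between 0.27 and 0.38 for Sox11 and between -0.46 and -0.36 for Sox15 over the 4 fits that each leave out an array.

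**Figure D2:**
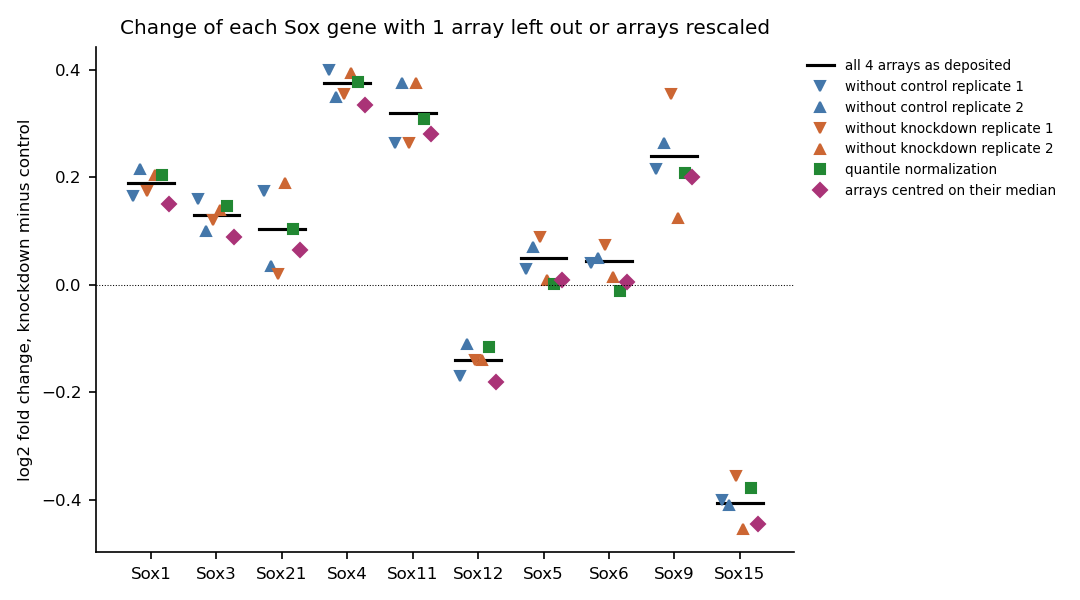
Log2 fold change of each Sox gene, knockdown minus control (y axis), with all 4 arrays as deposited (black bar), with each array left out in turn (triangles) and after 2 other scalings (square and diamond). Sox4 and Sox11 stay above 0.2 and Sox15 below -0.3 under each of these settings, while Sox21 and Sox9 move with single arrays and Sox6 crosses 0.

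Of the SoxB genes, Sox1 and Sox3 had positive values that missed the threshold. Sox1, a factor of the neural plate and neural progenitors, was at 9.70 and 9.75 in control and at 9.93 and 9.90 in knockdown cells. The groups were separate, with a gap of 0.15, and the log2 fold change was 0.19 (SE 0.062, interval 0.04 to 0.34, adjusted p = 0.104, limma). Sox3, an X-linked factor of the early epiblast and neural progenitors, was at 9.80 and 9.74 in control and at 9.91 and 9.89 in knockdown cells. Its groups were separate by 0.09, and the change was 0.13 (SE 0.062, interval -0.02 to 0.28, adjusted p = 0.225, limma). Sox21, which represses targets that SoxB1 factors activate, was at 9.44 and 9.30 in control and at 9.56 and 9.39 in knockdown cells. These ranges overlapped. Its change was 0.11 (SE 0.087, interval -0.11 to 0.32, adjusted p = 0.466, limma), and leaving out knockdown replicate 1 gave 0.02 and knockdown replicate 2 gave 0.19.

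Sox2, the SoxB1 factor of the pluripotency network and not among the 10 genes, had values of 13.45 and 13.44 in control and 13.32 and 13.30 in knockdown cells (log2 fold change -0.14, adjusted p = 0.196, limma). Its sign was opposite to those of Sox1 and Sox3. The change of Sox1 exceeded that of Sox2 by 0.33 and that of Sox3 exceeded it by 0.27. The array differences did not overlap between the groups in either contrast (exact permutation p = 0.333, the smallest possible). Sox1 and Sox3 were each higher and Sox2 lower on both knockdown arrays. This outcome was therefore fixed by the single genes and adds no support. The promoter windows of Sox1 and Sox21 met the composition rule, with 37 and 22 CpG dinucleotides.

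Sox9, the SoxE factor of cartilage, testis, neural crest and several endodermal organs, was at 8.50 and 8.55 in control and at 8.65 and 8.88 in knockdown cells. Both knockdown arrays were higher, but they differed from each other by more than the gap of 0.10 between the groups. The log2 fold change was 0.24 (SE 0.091, interval 0.02 to 0.46, adjusted p = 0.145, limma), and leaving out knockdown replicate 2 gave 0.13 and knockdown replicate 1 gave 0.36. On knockdown replicate 2, markers of primitive endoderm were also highest on average. Gata6, the regulator of that lineage, was at 10.07 and 10.04 in control and at 11.74 and 12.60 in knockdown cells. Over the 16 endoderm markers measured, the mean log2 value was 9.39 and 9.17 in control and 9.70 and 9.91 in knockdown cells. Of these markers 4 were called higher and 0 lower, beside 5.00% and 7.19% of all genes. Their part in the values of Sox9 was not tested.

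The SoxD genes Sox5 and Sox6, which encode coiled-coil partners of Sox9, showed the smallest changes of the 10. Sox5 was at 8.06 and 8.10 in control and at 8.09 and 8.17 in knockdown cells, and Sox6 at 7.96 and 7.97 in control and at 7.98 and 8.04 in knockdown cells. The groups overlapped for Sox5 and were 0.01 apart for Sox6. The log2 fold changes were 0.05 (interval -0.11 to 0.21) and 0.05 (interval -0.11 to 0.20), with adjusted p-values of 0.65 and 0.671 in limma. Both intervals leave out changes of the size seen for Sox4. These were also the 2 genes of the 10 that the filter on dim genes removed (mean log2 value not above 8.52). After quantile normalization the value of Sox5 was 0.00 and that of Sox6 was -0.01.

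None of the listed promoter windows of Sox5 and Sox6 met the composition rule. The window of Sox13, a SoxD gene outside the 10, did meet it, with 40 CpG dinucleotides (73.3% G + C, ratio 1.0). Sox5 had 1 window with 3 CpG dinucleotides, and the 6 windows of Sox6 held from 2 to 13. In total 8 of the 10 genes had windows in the RefSeq promoter table, and 5 of these (Sox1, Sox4, Sox11, Sox12 and Sox21) had one that met the rule. Sox3 and Sox9 had no entry. A search of both strands for the octamer ATGCAAAT, the classical site of POU factors, found it in the windows of Sox1 and Sox12, and in 1.74% of all windows. The Sox motif AACAAT occurred in 1 window of Sox6 (10.7% of all windows), and ACAAAG in 5 windows of Sox6 and the window of Sox15 (18.7% of all windows). TATAAA, the TATA box, occurred in 2 windows of Sox6 (13.6% of all windows). A match describes the sequence only.

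**Figure D3:**
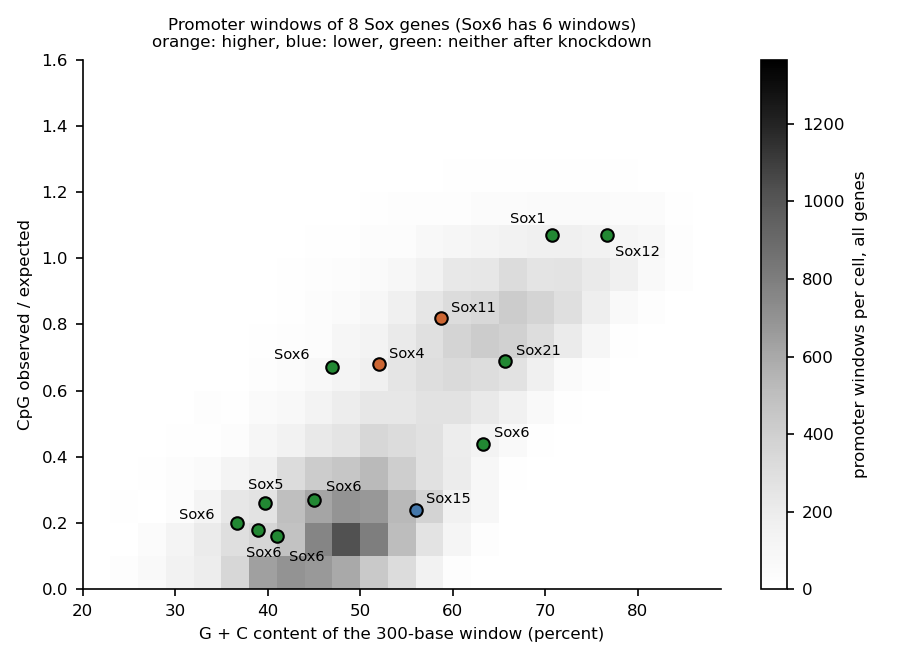
CpG observed over expected ratio (y axis) against G + C content (x axis, percent) of the 13 promoter windows of 8 Sox genes, coloured by the gene's call, over the density of the windows of all genes (grey). The windows of Sox4 and Sox11, which were higher after knockdown, lie above a ratio of 0.6, that of Sox15, which was lower, lies at 0.24, and those of Sox1 and Sox12, called in neither direction, lie highest.

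The other 10 Sox genes of the mouse were all measured, and 1 of them, Sox17, was called higher, beside 5.00% of all genes. Sox17 and Sox7, SoxF factors of primitive endoderm and vessels, had larger point estimates than any of the 10 described genes, a difference that was not tested. Sox17 was at 7.88 and 7.97 in control and at 8.28 and 8.63 in knockdown cells, and rose by 0.53 (SE 0.12, adjusted p = 0.0438, limma). Its mean log2 value of 8.19 was not above 8.52, so the filter on dim genes removed it. Without knockdown replicate 2 the value of Sox17 was 0.36, and after quantile normalization its adjusted p was 0.0582 in limma. Sox7 was at 8.70 and 8.75 in control and at 9.08 and 9.77 in knockdown cells, which gave a change of 0.70 (SE 0.21, adjusted p = 0.0858, limma), or 0.36 without knockdown replicate 2. Both stood highest on knockdown replicate 2, as did Sox5, Sox6, Sox9, Sox18 and Gata6. Of the 10 described genes, Sox1, Sox3, Sox4, Sox11 and Sox21 were lower there than on knockdown replicate 1. For Sox4 these values were 9.65 and 9.69. What set the knockdown arrays apart was not tested. The remaining members, Sox8, Sox10, Sox13, Sox14, Sox18, Sox30 and Sry, had log2 fold changes of 0.09, -0.02, -0.06, 0.08, 0.05, 0.06 and 0.13 and none passed the threshold.

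**Figure D4:**
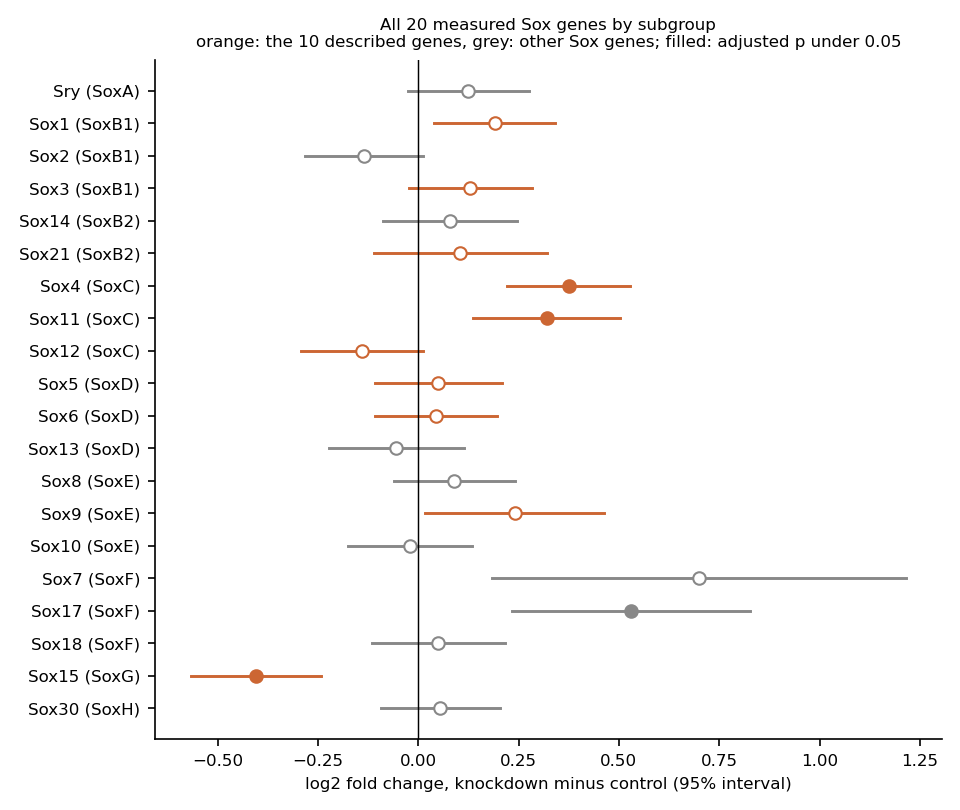
Log2 fold change, knockdown minus control, with its 95% interval (x axis) for all 20 Sox genes, ordered by subgroup. Orange marks the 10 described genes, grey the other Sox genes and a filled point an adjusted p under 0.05: Sox4 and Sox11 (SoxC) and Sox17 (SoxF) lie to the right of 0 and Sox15 (SoxG) to the left.

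Among genes that act with or downstream of these factors, calls were made in both directions. The counts of called genes in the lists below stand beside 5.00% called higher and 7.19% called lower among all genes. Of 19 neural progenitor genes measured, 2 were higher (the intermediate filament gene Nes by 0.72, SE 0.11, and the homeobox gene Gbx2 by 1.07, SE 0.11) and 2 lower. Pax6, a regulator of eye and brain, fell by 0.80 (SE 0.076) and Msi1, an RNA-binding protein gene of neural stem cells, fell by 0.86 (SE 0.095). The median over the list was 0.05, beside 0.03 for all genes, and it was -0.01 when knockdown replicate 1 was left out and -0.005 under the filter on dim genes. After median centring of the arrays 4 of its genes were lower. Gbx2 is also expressed in stem cells, where it is a target of leukemia inhibitory factor signalling. Of 19 early neuronal genes 3 were higher and 0 lower, and at an adjusted p under 0.1, 4 were higher and 1 lower. Positive values made up 57.9% of the list, beside 57.6% of all genes. The log2 fold changes ran from -0.36 to 0.88, with a median of 0.045. That median was 0.005 when control replicate 2 or knockdown replicate 2 was left out, 0.01 when knockdown replicate 1 was left out, 0.005 with median-centred arrays, 0.00375 after quantile normalization and 0.1275 with dim genes removed. Stmn3, a stathmin of neuronal microtubules, rose by 0.88 (SE 0.12, or 0.44 averaged over its probe sets), the growth cone gene Gap43 by 0.35 (SE 0.079) and the POU-domain gene Pou4f1 by 0.34 (SE 0.067). Tubb3 and Tead2, known as direct targets of SoxC factors, had log2 fold changes of 0.20 and -0.15 and did not pass the threshold. Without knockdown replicate 2 the value of Tubb3 was 0.10 and without control replicate 1 it was 0.12. They were named outside the rule for named genes.

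Of 6 genes measured from a list of POU factors that partner Sox proteins on DNA, 0 passed the threshold in limma. The called POU-domain gene Pou4f1 was read with the early neuronal genes and is not on this list. An unadjusted p under 0.05 was found for 2 of the 6 and for 29.8% of all genes. The largest values were 0.29 for Pou3f1 (adjusted p = 0.0665, limma) and 0.25 for Pou3f3 (adjusted p = 0.0587, limma), both neural partners of SoxB1 proteins. All 6 log2 fold changes were positive, beside 57.6% of all genes, with a median of 0.20, or 0.12 without knockdown replicate 1. With dim genes removed 2 of them passed. Of 17 neural crest and glial genes, which SoxE factors accompany, 2 were higher and 1 lower, with a median of 0.16, or 0.10 without control replicate 2. Positive values made up 88.2% of this list, beside 57.6% of all genes. Foxd3, a forkhead factor of stem cells and crest, rose by 1.09 (SE 0.07) and Twist1 by 0.43 (SE 0.091), while the pigment cell regulator Mitf fell by 0.53 (SE 0.11). Of 16 cartilage genes, known as targets of Sox9 with Sox5 and Sox6, 0 were higher and 1 lower, the matrilin gene Matn3 (-0.52, SE 0.094), and the median was 0.02.

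**Figure D5:**
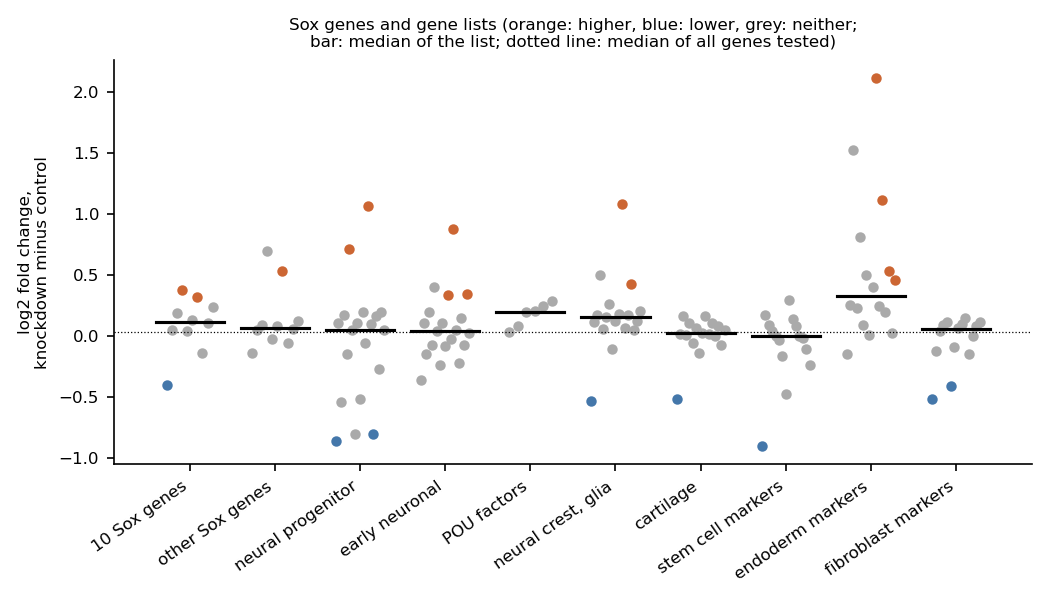
Log2 fold change, knockdown minus control (y axis), of each measured gene in the 10 Sox genes, the other Sox genes and 8 lists of related genes or cell type markers (x axis), with the list's median (bar) and the median of all genes (dotted line, 0.03). The 10 described Sox genes lie between -0.41 and 0.38.

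Markers of other cell types were read beside these changes. Of 14 fibroblast and feeder markers measured, 0 were higher and 2 lower, namely Acta2 (-0.41) and Pdgfrb (-0.52), and their mean log2 value was 7.98 on both control arrays, 7.96 on the first and 7.93 on the second knockdown array. Of the 16 endoderm markers, Gata6 rose by 2.12 (SE 0.26), the adaptor gene Dab2 by 1.12 (SE 0.23, or 0.65 averaged over its probe sets) and the collagen genes Col4a1 and Col4a2 by 0.54 and 0.46. The other 12 endoderm markers passed the threshold in neither direction. Whether the cultures held endoderm cells was not tested, nor was the part of such cells in the values of the Sox genes.

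The genes nearest to Sox4 and Sox15 over the 4 arrays were found from the Euclidean distance between log2 values, each gene centred on its own mean. For Sox4 they were the nitric oxide synthase gene Nos1, Zfp46 and Lrrc14, at distances of 0.014, 0.014 and 0.025. For Sox15 they were Map3k2, Tdp2 and Fam149b, at 0.0087, 0.0087 and 0.014. With 4 arrays such closeness is common, since 234 genes lay within 0.1 of Sox4 and 247 within 0.1 of Sox15.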

How the data were processed

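The authors deposited log2 expression values per probe set for 35557 probe sets, which the submitters' processing notes credit to Affymetrix Expression Console. The version of this program, how background was handled and how arrays were scaled: not given in the sources used here. The log2 scale was read from the values. Probe sets with 1 symbol in the platform annotation (21789) were reduced to the one with the highest mean per gene, giving 19938 genes. Groups and replicate numbers came from the sample titles. Knockdown was compared with control in limma 3.58.1 (R 4.3.3; lmFit and eBayes, a model with group alone, two-sided tests, p-values adjusted by Benjamini-Hochberg over all genes), with moderated standard errors and 95% intervals. Genes with an adjusted p under 0.05 were called. The procedure was tested on simulated data with 50 changed genes at each size. It recovered 23 of them at 1.25-fold and 49 at 1.5-fold, and called 10 of 19738 unchanged genes. Changes near 1.25-fold can thus be missed, and a gene that was not called is not shown to be unchanged. The simulation changed a smaller share of genes than the 12.2% called in the data, and its noise was drawn from moderated variances. Its rates of recovery and of false calls need not hold for these data. Pairs of Sox genes were compared by exact permutation over arrays. Promoter windows and their coordinates came from RefSeq (GRCm38.p6). The Sox genes, the gene lists and the pairs were chosen with earlier results of these data known. The text names the 10 Sox genes, Kdm2b, all other Sox genes and, from each list, up to 4 called genes by size or the 2 largest where none was called. Tubb3, Tead2, Sox1ot, Sox6os and the octamer were chosen outside that rule. The number of arrays limits the precision. Alternatives were a replicate block, each array left out, quantile normalization, median centring, a filter on dim genes, other uses of probe sets, other priors, an adjusted p under 0.1 and limma's treat against 1.5-fold.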

Additional observations from a re-analysis of the deposited data

How the results depend on the processing

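With all 4 arrays as deposited, 2 Sox genes were called higher and 1 lower, among 997 higher and 1434 lower genes. With the replicate block, and with each array left out in turn (a range of 0 to 0), limma called 0 Sox genes and 0 of all genes in each direction, where 5411 genes with the block and 3495 to 4215 with an array left out had an unadjusted p under 0.05. Same-numbered arrays share only a number in the titles, and the difference between replicates correlated between the groups with r = 0.0954 across genes. With median centring 1 Sox gene was called higher. Against a 1.5-fold change (treat) 0 Sox genes were called in either direction, and 3 genes in all were higher and 1 lower, with 316 at an unadjusted p under 0.05. At an adjusted p under 0.1, 1920 genes were higher and 2236 lower. Under the other alternatives (quantile normalization, dim genes removed, the mean of probe sets, every probe set, an intensity trend and a robust prior) the counts of called Sox genes were 2 and 1. Of the 10 Sox genes, Sox6 changed sign, and it did so only after quantile normalization (-0.01). No Sox gene or listed gene that was called with all 4 arrays changed sign under any alternative. List medians close to 0 could change sign, as for the cartilage genes (-0.02 after median centring) and the neural progenitor genes (-0.005 with dim genes removed). CpG shares were also computed over the 250 bases before the start alone, which are part of the same windows and so give no separate check. Signal over background is not given per array, so detection of Sox5 and Sox6 could not be judged.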

Other observations

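Non-coding RNAs beside the Sox genes had probe sets of their own. Sox1ot, whose RefSeq span overlaps Sox1, was at 8.48 and 8.49 in control and at 8.76 and 8.70 in knockdown cells. Both knockdown arrays lay above both control arrays, and the log2 fold change was 0.25 (SE 0.062, adjusted p = 0.0573, limma), close to the 0.19 of Sox1. Sox6os, whose span overlaps Sox6, was at 8.07 and 8.12 in control and at 8.30 and 8.23 in knockdown cells, which gave 0.17 (SE 0.064, adjusted p = 0.145, limma) beside 0.05 for Sox6. Neither passed the threshold. Where spans overlap, the values of a pair may not be separate measurements.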
